A study of Mus musculus with 6 samples.

Results

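The genes described here are 42 genes of the unfolded protein response and of protein folding in the endoplasmic reticulum (ER), out of 55487 gene identifiers in the deposited table. They were taken as a list of names, chosen with earlier results of these data known, and cover 5 stress sensors, 4 transcription factors, 3 targets of ATF4 and CHOP, 9 chaperones and folding factors of the ER lumen, 2 lectin chaperones, 5 protein disulfide isomerases, 10 genes of ER-associated degradation and 4 genes of the translocon. The samples were 3 libraries labelled NEC and 3 labelled control, all from the terminal ileum of C57BL/6 mice on postnatal day 9, with no transgene or mutant allele named. NEC is necrotizing enterocolitis, an inflammatory disease of the newborn bowel, and was induced by gavage of a hyperosmolar formula of Similac and Esbilac, 4 days of hypoxia in 3 daily spells of 10 min at 5% O2, and oral lipopolysaccharide at 4 mg/kg on each of postnatal days 6 and 7. The control labels carry the same treatment text, so how the controls were fed and handled is not stated. The labels do not say whether the libraries came from separate animals, and p-values therefore measure the spread between these libraries, which may be technical.

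The ER is where secreted and membrane proteins enter the secretory path, fold, form disulfide bonds and receive their first sugars. When unfolded proteins build up there, the sensors IRE1, PERK and ATF6 act. IRE1 splices the mRNA of Xbp1, PERK phosphorylates eIF2alpha and so favours translation of ATF4, and ATF6 is cut to a transcription factor. XBP1 and ATF6 drive genes of chaperones and of ER-associated degradation, while ATF4 and its target CHOP drive genes of amino acid supply and of the late stress response. In the small intestine the secretory goblet and Paneth cells depend on this machinery, and absorptive cells use the same ER to build lipoproteins. Splicing of Xbp1, phosphorylation and protein levels are not seen in values per gene.

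The values are FPKM (fragments per length of transcript and per depth of the library), and were read as such because the table names no unit. Their smallest steps give an estimated depth of 15.2 to 18.7 M fragments per library. NEC 1 stood apart: the 7SL RNA gene Rn7s1 took 42.7% of its total FPKM, against 27.3% to 32.2% in the other libraries, and 13461 genes reached 1 FPKM in it, against 14541 and 14882 in the other NEC libraries and 16290 to 16702 in the controls. As to the tissue label, the epithelial gene Epcam was at 247, 206 and 240 FPKM in NEC 1, 2 and 3 and at 247, 251 and 251 FPKM in control 1, 2 and 3. Of the ileal genes, the bile acid transporter Slc10a2 was at 1.01 to 2.30 FPKM in NEC and 1.31 to 2.21 FPKM in control, Fabp6, the ileal bile acid-binding protein, was at 0.123, 0 and 10.4 FPKM in NEC and 1.20 to 2.45 FPKM in control, and Fgf15, the ileal hormone of bile acid feedback, fell, with 0.0821 to 1.35 FPKM in NEC and 5.55 to 5.97 FPKM in control. Several lists of cell type markers moved with the groups. All 12 enterocyte markers rose, with a summed level of 12676 to 15781 FPKM in NEC and 3371 to 4205 FPKM in control. Of 10 goblet cell markers 1 rose and 5 fell (347 to 586 FPKM in NEC, 551 to 972 FPKM in control, 1 higher and 1 lower after TMM scaling, described below), and of 9 mesenchyme and muscle markers 5 fell (200 FPKM in NEC 1, 684 and 750 FPKM in NEC 2 and 3, and 1070 to 1291 FPKM in control, 4 lower after TMM scaling). Of the enterocyte sum, Apoa4 alone had 8174 to 10333 FPKM in NEC and 1678 to 2178 FPKM in control. Over all tested genes 7.69% were higher and 30.6% lower, and 16.7% and 14.2% after TMM scaling. Other lists had few calls: of 5 tested neutrophil markers 0 were called, and of 5 tested Paneth markers 1 was lower. Their controls were not alike. With untested genes included, Paneth markers summed to 30.8, 55.4 and 56.4 FPKM in NEC and 252, 175 and 39.9 FPKM in control 1, 2 and 3. Neutrophil markers summed to 61.4, 66.1 and 58.9 FPKM in NEC and 7.29, 63.5 and 63.5 FPKM in control 1, 2 and 3. Whether cell type markers have a part in the results below was not tested. In bulk tissue, fewer cells of a type and less RNA per cell cannot be told apart.

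Most of the 42 genes did not pass the test. Of 41 tested genes (mean of at least 1 FPKM over the 6 libraries), the test called 5 higher in NEC and 3 lower, while 33 did not pass (limma on log2(FPKM + 1), Benjamini-Hochberg adjusted p under 0.05 over all tested genes). P4hb, Edem2, Hyou1, Dnajb9 and Asns rose, and Ern2, Pdia5 and Sel1l fell. Over all 15806 tested genes the share called was 38.2%, with 7.69% higher and 30.6% lower. Groups did not overlap for 17 of the 41 genes, 9 above and 8 below control, against 59.1% of all tested genes. The median log2 change was 0.03 over the 41 genes and -0.26 over all tested genes. Scaling with TMM, the trimmed mean of M values, put the median of all genes at 0.00 and the median of these genes at 0.33, and it called 16 of them higher and 1 lower, against 16.7% higher and 14.2% lower of all tested genes on that scale. Quantile normalization called 9 higher and 2 lower, against 13.9% and 15.1% of all tested genes. Scaling to protein-coding genes called 8 higher and 3 lower, against 9.21% and 28.5% of all tested genes. The balance of rises and falls thus depended on the scaling, and P4hb, Edem2, Hyou1, Dnajb9 and Asns were called higher under all 3 of these scalings. Without NEC 1 there were 8 higher and 5 lower, and without NEC 3 there were 8 higher and 6 lower. Without control 1 or control 2 there were 2 or 3 higher and 0 lower (3 lower by limma at an unadjusted p under 0.05 in each). Over all tested genes the calls also fell, from 1215 higher and 4829 lower to 499 and 1049 without control 1. Without control 2 they were 471 and 917. Without NEC 1 they were 1566 and 5371, and without NEC 3 they were 1249 and 5378.

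**Figure D1:**
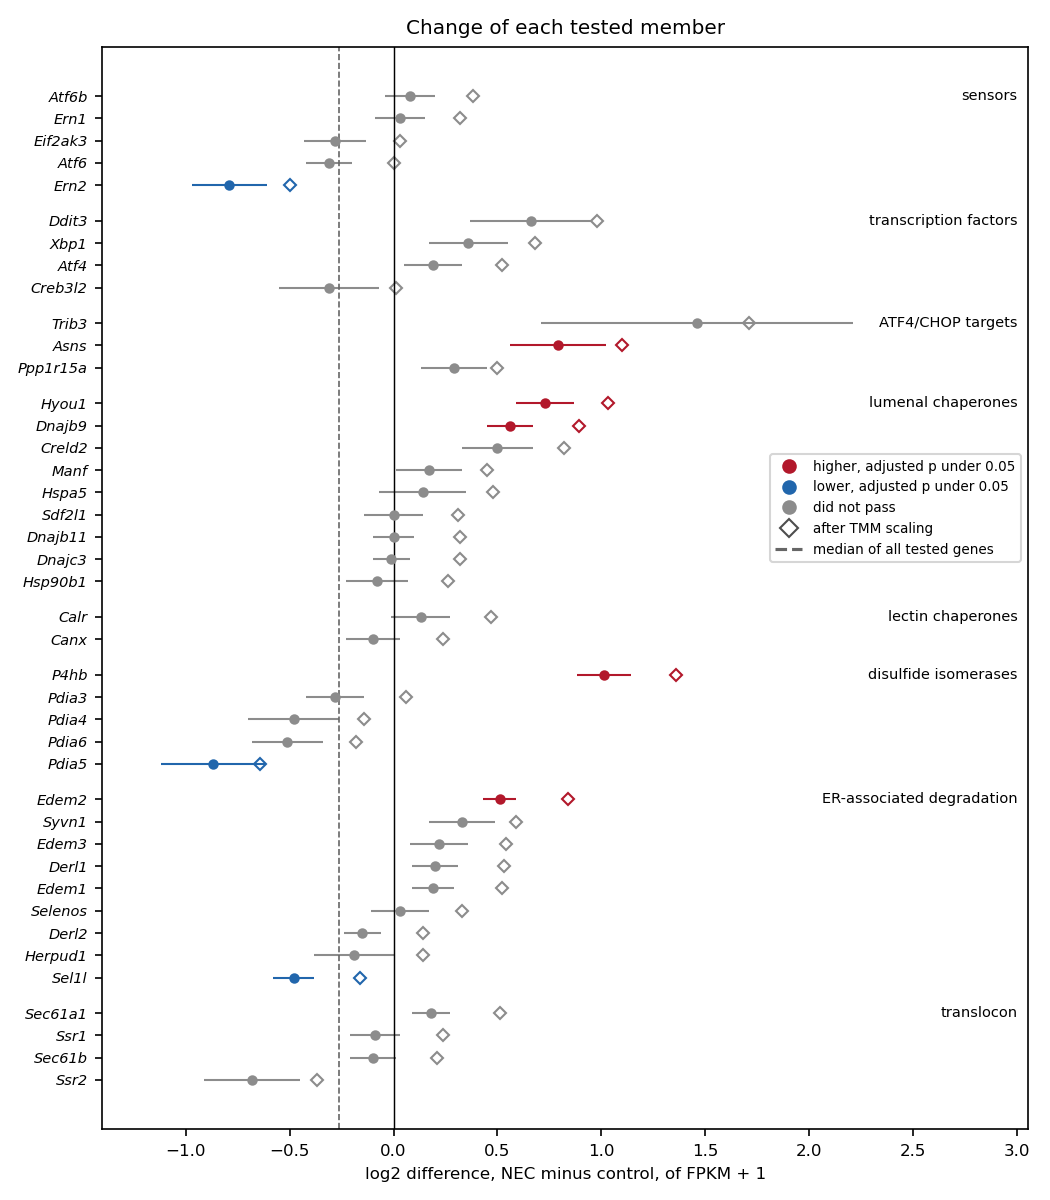
Log2 difference of FPKM + 1, NEC minus control (filled points, bars show the standard error), for the 41 tested genes by role; open diamonds give the same after TMM scaling, in the colour of the call on the deposited values. P4hb at 1.01 is the highest of the called genes and Pdia5 at -0.87 the lowest, and the dashed line marks the median of all tested genes at -0.26.

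Among the stress sensors, Ern2 fell and the other 4 did not pass the test. Ern2, on mm10 chromosome 7 from 122169893 to 122186207, encodes IRE1beta, the form of IRE1 found in the epithelium of the gut, where goblet cells express it. It was at 2.94, 3.39 and 4.15 FPKM in NEC 1, 2 and 3 and at 7.58, 7.70 and 5.13 FPKM in control 1, 2 and 3. Every NEC library was below every control, and control 3 lay nearest to the NEC libraries. The log2 change was -0.79 (SE 0.18, adjusted p = 0.0184 by limma with Benjamini-Hochberg adjustment). It was -0.50 after TMM scaling (adjusted p = 0.0462), and the adjusted p was 0.0515 without NEC 2, 0.0718 without control 1 and 0.073 without control 2, in a range of 0.01 to 0.073 over all 16 alternatives. Tff3, which encodes a goblet cell peptide and also fell, though not past the threshold after TMM scaling, was at 153, 235 and 272 FPKM in NEC and 488, 452 and 292 FPKM in control, here too with control 3 nearest to NEC. The other goblet cell markers did not all follow: of 10, 5 fell, 1 (Zg16) rose and 4 did not pass. Among those that did not pass, Muc2 was at 57.1, 76.7 and 87.5 FPKM in NEC and 88.2, 79.6 and 59.3 FPKM in control. Fcgbp was at 98.9, 155 and 143 FPKM in NEC and 253, 247 and 140 FPKM in control. The part of goblet cell number in the fall of Ern2 was not tested.

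Ern1, which encodes the IRE1alpha found in most cells, was at 4.56, 6.24 and 5.55 FPKM in NEC and 5.35, 5.28 and 5.22 FPKM in control. Its groups overlapped, and its log2 change was 0.03 (SE 0.12). After TMM scaling Ern1 was called higher, at 0.32 (limma adjusted p = 0.0373). The PERK gene Eif2ak3 was at 6.20, 9.50 and 7.90 FPKM in NEC and 10.3, 9.34 and 9.24 FPKM in control, a log2 change of -0.28 (SE 0.15, limma adjusted p = 0.179). Atf6 lay below control in each NEC library, at 7.08, 8.88 and 8.74 FPKM against 10.6, 10.7 and 9.89 FPKM, with a log2 change of -0.31 (SE 0.11, limma adjusted p = 0.0661) that was 0.00 after TMM scaling. Its paralog Atf6b was at 6.76 to 9.26 FPKM in NEC and 7.27 to 7.92 FPKM in control. Atf6b was called higher after TMM scaling, at 0.38 (limma adjusted p = 0.0194). All 5 sensors were lowest in NEC 1, which 64.1% of all tested genes also were.

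On the deposited scale none of the 4 transcription factors of the response passed the test, also at an unadjusted p under 0.05 (0 of 4 by limma). After TMM scaling 0 were called, but 3 were higher at an unadjusted p under 0.05 by limma. No share of all tested genes is given at that unadjusted threshold. The TMM log2 changes of Ddit3, Xbp1 and Atf4 were 0.98, 0.68 and 0.52 (limma adjusted p = 0.0834, 0.0858 and 0.076), and that of Creb3l2 was 0.01. Ddit3, which encodes CHOP, was at 24.3, 15.9 and 9.85 FPKM in NEC 1, 2 and 3 and at 9.37, 8.45 and 11 FPKM in control 1, 2 and 3. NEC 1 and 2 were above every control, and NEC 3 was within the control range. The log2 change was 0.66 (SE 0.29, limma adjusted p = 0.117, 0.018 without NEC 3, range 0.018 to 0.263 over 16 alternatives). A second entry with the symbol Ddit3, a short gene that overlaps its leader, was at 0.510 to 0.563 FPKM in NEC and 0.588 to 0.626 FPKM in control and is not counted here. Xbp1 was at 17.8, 11.2 and 10.6 FPKM in NEC and 10.1, 10.1 and 9.21 FPKM in control. Its groups did not overlap, but NEC 1 alone stood well above the rest (log2 0.36, SE 0.19, limma adjusted p = 0.175). Atf4, which is regulated at translation as much as at its mRNA, was at 30.6, 31.3 and 22.3 FPKM in NEC and 23.2, 24.8 and 24.9 FPKM in control, again with NEC 3 apart from NEC 1 and 2 (log2 0.19, SE 0.14). Creb3l2, a membrane-bound factor cut like ATF6, was at 6.73 FPKM in NEC 1, 14.0 and 11.9 FPKM in NEC 2 and 3 and 12.9 to 13.3 FPKM in control.

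Of the 3 targets of ATF4 and CHOP, Asns rose and the other 2 did not pass, and Trib3 had the widest log2 range between NEC libraries of the 41 tested genes. Trib3, a pseudokinase gene that CHOP and ATF4 induce (mm10 chromosome 2, 152337422 to 152344032), was at 18.2, 6.31 and 0.930 FPKM in NEC 1, 2 and 3 and at 1.21, 1.12 and 1.77 FPKM in control 1, 2 and 3. Its mean was 8.47 ± 8.83 FPKM in NEC and 1.37 ± 0.353 FPKM in control (SD, n = 3 each), so NEC 1 and 2 were far above the controls and NEC 3 was below them. With that spread the log2 change of 1.46 (SE 0.75) had a limma adjusted p of 0.162, and of 0.0119 without NEC 3, in a range of 0.0119 to 0.355 over 15 alternatives. Asns, which encodes asparagine synthetase (mm10 chromosome 6, 7675169 to 7693254), was at 15.3, 14.3 and 7.96 FPKM in NEC and 6.18, 6.15 and 7.40 FPKM in control. It passed the test, with NEC 3 only just above control 3 (log2 0.79, SE 0.23, limma adjusted p = 0.0381). That call was lost when any library other than NEC 3 was left out: the adjusted p was 0.076 without NEC 1, 0.104 without NEC 2, 0.111 without control 1, 0.114 without control 2 and 0.0763 without control 3. It was 0.0691 with no filter on low values and 0.0633 with the replicate number as a block, in a range of 0.00524 to 0.114 over 16 alternatives. Ppp1r15a, which encodes GADD34, the subunit that directs dephosphorylation of eIF2alpha, was at 2.26, 1.62 and 1.3 FPKM in NEC and 1.11, 1.37 and 1.14 FPKM in control and did not pass (log2 0.29, SE 0.16). All 3 genes were highest in NEC 1 and lowest in NEC 3, on the deposited scale and after TMM scaling.

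**Figure D2:**
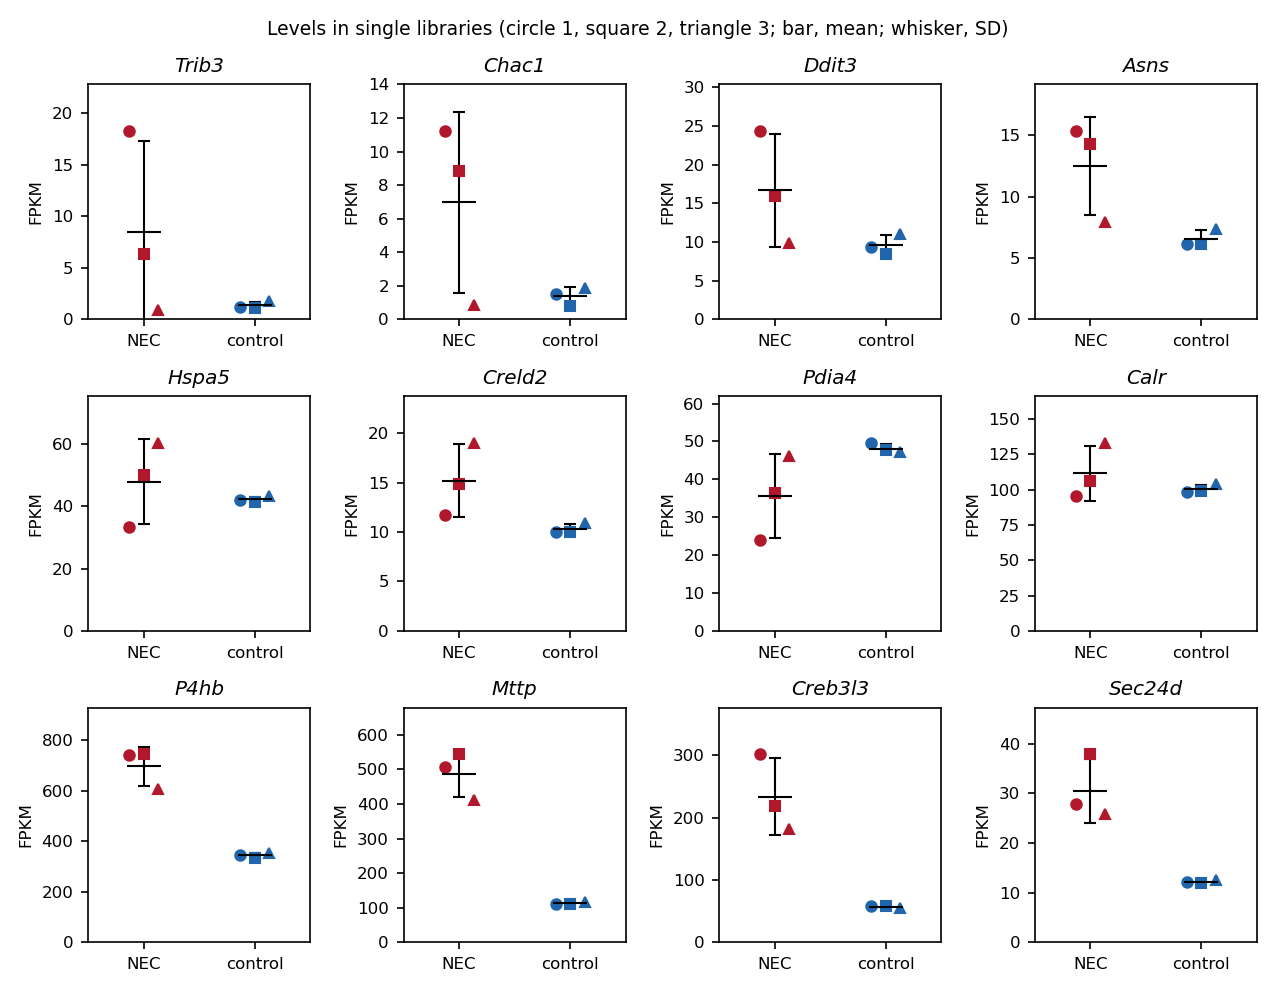
FPKM in single libraries of 12 genes, NEC left of control, with the group mean as a bar and the SD as a whisker (n = 3 each). Trib3, Chac1, Ddit3 and Asns were highest in NEC 1 (circle) and lowest in NEC 3 (triangle), and Hspa5, Creld2, Pdia4 and Calr the other way round. After TMM scaling, not shown here, Calr was lowest in NEC 2. The 4 genes of the bottom row have groups that do not overlap, and the lower whisker of Trib3 ends at the axis.

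A list of other ATF4 and CHOP targets was read in the same way. Of its 33 tested genes, 19 were highest in NEC 1 and 25 were lowest in NEC 3, that is 57.6% and 75.8%, against 19.6% and 19.2% of all tested genes. After TMM scaling these counts were 21 and 27, or 63.6% and 81.8%, against 37.9% and 34.3% of all tested genes. The list's median distance from the control mean was 0.43, 0.29 and -0.09 on the log2 scale in NEC 1, 2 and 3. For all tested genes it was -0.39, -0.23 and -0.18. After TMM scaling the list was at 0.92, 0.53 and 0.09, with all tested genes at 0.00. Chac1, an enzyme gene that degrades glutathione and is known as an ATF4 target, was at 11.2, 8.85 and 0.884 FPKM in NEC and 1.52, 0.803 and 1.88 FPKM in control, and was chosen for mention after its values were seen (log2 1.37, SE 0.68, limma adjusted p = 0.15). Between the groups, 1 gene of the list was higher, 4 were lower and 28 did not pass. Over all tested genes 7.69% were higher and 30.6% lower. Nars, the asparaginyl-tRNA synthetase gene, rose by 0.59, at 14.3, 14.1 and 10.1 FPKM in NEC and 7.54, 7.22 and 9.72 FPKM in control. Cth, a gene of cysteine synthesis, fell by 1.03 and Stc2, a secreted glycoprotein gene, fell by 0.75 on the log2 scale. TMM scaling gave 9 higher and 2 lower in this list, beside 16.7% higher and 14.2% lower of all tested genes.

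Promoter sequences are shown before the chaperone values because a known DNA element marks many of these genes. The ER stress response element (ERSE) consists of CCAAT, where NF-Y binds, then 9 bases, then CCACG, where ATF6 and XBP1 act. ERSE-II is ATTGG, 1 base and CCACG, and the element of ATF4 with C/EBP factors (CARE) was searched as TGATGNAA. RefSeq promoters from 250 bases before to 50 bases after the start (build GRCm38.p6) were found for 35 of the 42 genes, and both strands were searched. ERSE was in 9 of the 35 genes (25.7%) and in 37 of 27025 genes with a promoter in the table (0.137%). ERSE-II was in 2 (5.71%, against 0.0444%) and CARE in 3 (8.57%, against 4.51%). The further element TGACGTGG, bound by ATF6 or XBP1, was in 0 of the 35 and in 193 of all genes (0.714%). Its reverse complement shares the letters CCACG with ERSE, and no match printed here overlaps another. Capitals mark the letters of the element, with 8 bases on each side, on the strand of the gene. Elements on the opposite strand read CGTGG, 9 bases, ATTGG; CARE on that strand reads as the reverse complement.
Hspa5, chr2:34772017-34772051: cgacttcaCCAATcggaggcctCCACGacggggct
Hsp90b1, chr10:86705630-86705664: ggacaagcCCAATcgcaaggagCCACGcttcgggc
Hsp90b1, chr10:86705525-86705559: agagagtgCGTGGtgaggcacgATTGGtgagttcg
Dnajc3, chr14:118937819-118937853: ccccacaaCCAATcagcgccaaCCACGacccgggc
Creld2, chr15:88819512-88819546: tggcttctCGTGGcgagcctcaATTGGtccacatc
Calr, chr8:84847067-84847101: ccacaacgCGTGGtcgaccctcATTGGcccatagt
Canx, chr11:50325792-50325826: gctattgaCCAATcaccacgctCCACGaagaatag
Pdia6, chr12:17266483-17266517: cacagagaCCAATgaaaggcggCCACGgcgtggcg
Syvn1, chr19:6046524-6046558: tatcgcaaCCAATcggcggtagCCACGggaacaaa
Derl3, chr10:75893234-75893268: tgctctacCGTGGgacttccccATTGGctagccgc
Herpud1 (ERSE-II), chr8:94386369-94386395: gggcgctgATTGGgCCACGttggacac
Herpud1 (CARE), chr8:94386309-94386332: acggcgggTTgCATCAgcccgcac
Asns (CARE), chr6:7693217-7693240: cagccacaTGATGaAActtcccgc
The other matches were an ERSE-II of Dnajb11 and a CARE of Trib3, both just after the start. On the deposited scale none of the 8 tested genes with an ERSE was called between the groups by limma. Creld2 and Pdia6, 2 of them, had an unadjusted p under 0.05. Their median log2 change over the 8 was 0.06. It was 0.03 for the 26 tested genes with a promoter and no ERSE, of which 4 were higher and 2 lower. Of all tested genes 7.69% were higher and 30.6% lower on that scale. After TMM scaling Creld2, Dnajc3, Calr and Syvn1 of the ERSE genes were called higher. TMM scaling called 16 of the 41 tested genes described here higher, and 16.7% of all tested genes. The genes without an ERSE were not counted separately after TMM scaling, so the ERSE calls cannot be taken as particular to the element. A match of letters is a description, and a missing match says only that the letters are not in that window.

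**Figure D3:**
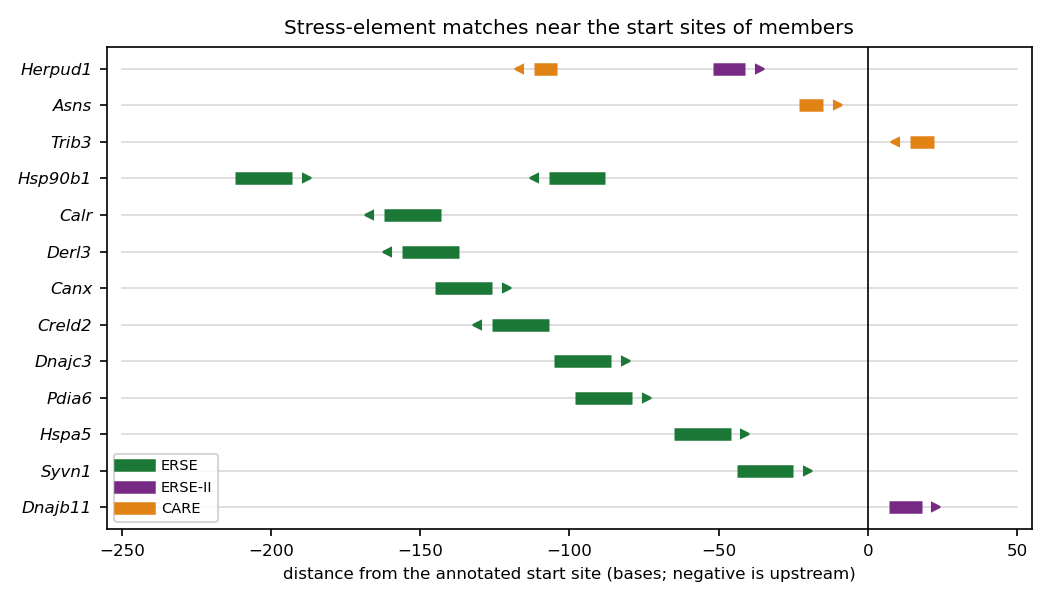
Position of each match relative to the annotated start (0, in bases, negative is upstream) in the 13 genes that hold one, with arrowheads giving the strand. ERSE matches lie upstream in all 9 genes that hold one, with a pair in Hsp90b1, while the CARE of Trib3 and the ERSE-II of Dnajb11 lie after the start.

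Of the 9 lumenal chaperones and folding factors, Hyou1 and Dnajb9 rose and 7 did not pass. Hyou1, a large HSP70 relative that helps BiP release nucleotide (mm10 chromosome 9, 44379490 to 44392369), was at 7.77, 10.1 and 10.1 FPKM in NEC and 4.69, 5.87 and 5.11 FPKM in control, a 1.79-fold ratio of the means without overlap. The log2 change was 0.73 (SE 0.14, limma adjusted p = 0.0117), and the adjusted p was 0.0542 without control 1, the highest of its 16 alternatives, whose lowest was 0.00225. Dnajb9, which encodes the co-chaperone ERdj4 and is a classic target of XBP1 (mm10 chromosome 12, 44205559 to 44210326), was at 36.8, 41.9 and 32.5 FPKM in NEC and 25.1, 24.3 and 24.9 FPKM in control. Every NEC library was above the controls (log2 0.56, SE 0.11, limma adjusted p = 0.0138, 0.0581 without control 1 and 0.063 without control 2, range 0.0027 to 0.063). No promoter of Hyou1 was given, and none of the searched elements was in that of Dnajb9.

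Hspa5, which encodes BiP, the main HSP70 of the ER lumen and the usual readout of ER stress, was at 33.4, 50.0 and 60.3 FPKM in NEC and 42, 41.4 and 43.2 FPKM in control. On the deposited scale NEC 1 was below all controls and NEC 2 and 3 were above them. The mean change was thus small for its spread (log2 0.14, SE 0.21, limma adjusted p = 0.61). After TMM scaling Hspa5 was at 42.4, 54.2 and 62.9 in NEC and 37.1, 36.5 and 38.8 in control. Every NEC library was then above every control, with a log2 change of 0.48 just short of the threshold (limma adjusted p = 0.0516). Without NEC 1, on the deposited scale, the log2 change of Hspa5 was 0.37. Its adjusted p was then 0.0257 by limma, the lowest of its 16 alternatives, whose highest was 0.85. Hsp90b1, the HSP90 of the ER, was likewise lowest in NEC 1 and highest in NEC 3 on the deposited scale. It was at 54.2, 61.8 and 81.0 FPKM in NEC and 67.6 to 68.7 FPKM in control. After TMM scaling it was at 68.8, 67 and 84.3 in NEC, lowest in NEC 2, and at 60.7, 59.5 and 61.7 in control. Creld2, a secreted folding factor, was at 11.7, 14.9 and 19.0 FPKM in NEC and 10.0, 9.95 and 10.9 FPKM in control. All its NEC values were above control, and it came close to the threshold (log2 0.50, SE 0.17, limma adjusted p = 0.0547, range 0.00562 to 0.149 over 16 alternatives, 0.00683 with TMM scaling and 0.00915 without NEC 1). Manf, a secreted stress-induced factor, was at 3.97, 5.01 and 6.58 FPKM in NEC and 4.29 to 4.64 FPKM in control. The co-chaperone genes Dnajb11 (9.89 to 12.0 FPKM in NEC, 10.6 to 11.4 FPKM in control), Dnajc3 (17.9 to 20.5 FPKM in NEC, 18.7 to 20.3 FPKM in control) and Sdf2l1 (8.80 to 12.6 FPKM in NEC, 10.3 to 11.3 FPKM in control) had log2 changes of 0.00, -0.01 and 0.00, and overlapping groups. After TMM scaling Dnajc3 and Manf were called higher, at 0.32 and 0.45.

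The lectin chaperones bind proteins that carry a trimmed sugar and hold them until they fold. Calr, which encodes calreticulin, was at 95.3, 106 and 133 FPKM in NEC and 98.1, 99.1 and 104 FPKM in control. Canx, which encodes calnexin, was at 57.2, 70.4 and 77.4 FPKM in NEC and 72.4, 72.8 and 73.0 FPKM in control. On the deposited scale neither passed the test, and the controls of Canx lay close together. Both were lowest in NEC 1, as were 64.1% of all tested genes, and highest in NEC 3, as were 48.8%. After TMM scaling Calr was at 121, 115 and 138 in NEC, lowest in NEC 2, and Canx was still lowest in NEC 1. Every NEC value of both was then above every control. Calr was called higher after TMM scaling, at 0.47.

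**Figure D4:**
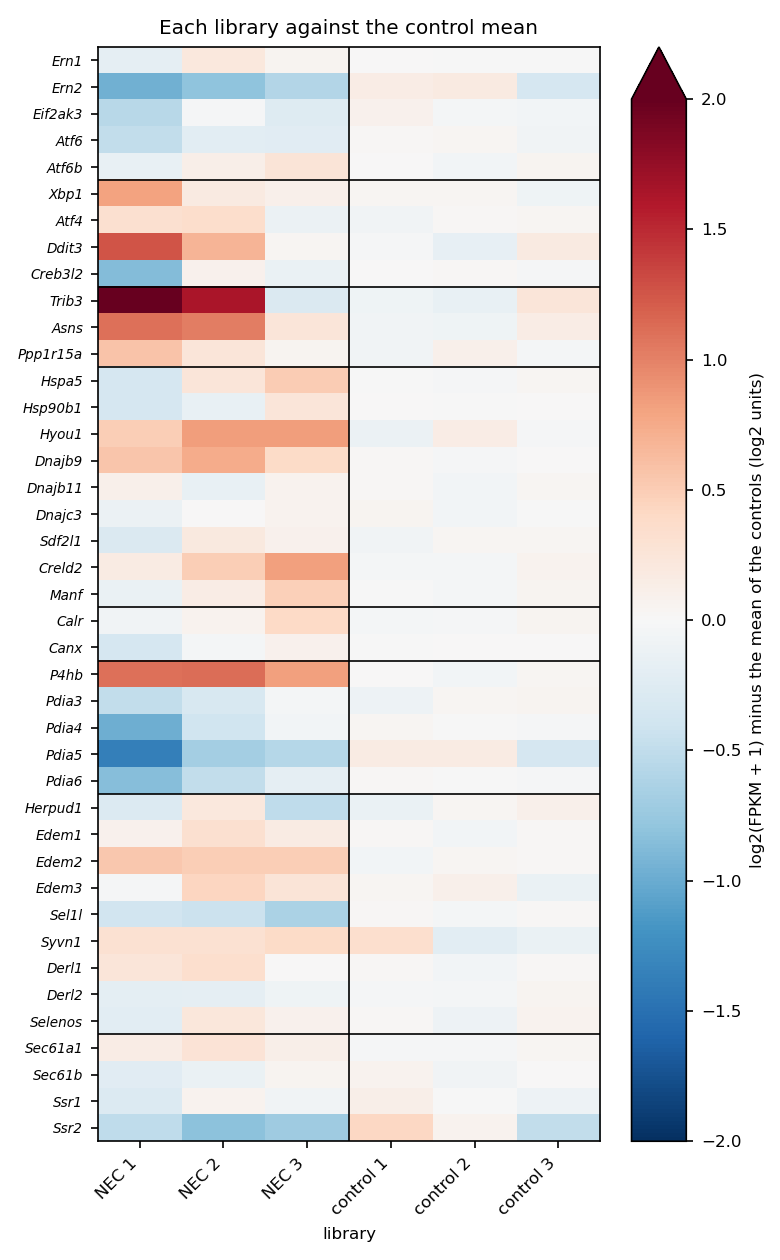
Log2(FPKM + 1) of each tested gene in each library minus the mean of the controls, in the order of roles used here, NEC on the left; the colour scale ends at 2, which Trib3 exceeds in NEC 1. Of the stress targets, Trib3 and Asns are red in NEC 1 and 2 and pale in NEC 3, while Ppp1r15a is furthest above control in NEC 1. The isomerases other than P4hb are blue mostly in NEC 1. The controls stay mostly pale, with Ern2, Pdia5, Syvn1 and Ssr2 among the exceptions.

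Over the lumenal chaperones, 6 of 9 were highest in NEC 3 and 7 were lowest in NEC 1, against 48.8% and 64.1% of all tested genes. With TMM scaling these counts were 4 and 5, against 34.2% and 42.5% of all tested genes. The NEC libraries spread more than the controls in 37 of 41 genes, by the range of log2 values. The share of all tested genes is not given for that count. The median SD over the 41 genes was 0.23 in NEC and 0.05 in control, against 0.211 and 0.0936 over all tested genes.

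The protein disulfide isomerases split. P4hb, the founding member of the family, rose, Pdia5 fell, and the other 3 did not pass. P4hb, on mm10 chromosome 11 from 120560298 to 120573253, was the most abundant of the 42 genes, at 739, 743 and 607 FPKM in NEC and 345, 332 and 354 FPKM in control. Its mean was 696 ± 77.3 FPKM in NEC and 344 ± 10.9 FPKM in control (SD, n = 3 each), a 2.03-fold ratio. The log2 change was 1.01 (SE 0.13, limma adjusted p = 0.00508), and it was called in all 16 alternatives, where the log2 change ran from 0.96 to 1.36. Its protein is also a subunit of prolyl 4-hydroxylase, which modifies collagen, and of the microsomal triglyceride transfer protein, which loads lipid onto lipoproteins in absorptive cells. Mttp, the gene of the large subunit of that transfer protein and an enterocyte marker here, was at 508, 543 and 411 FPKM in NEC and 110, 111 and 117 FPKM in control, and Col1a1, a collagen gene, was at 41.2, 108 and 116 FPKM in NEC and 234, 250 and 218 FPKM in control. The part of enterocyte content in the rise of P4hb was not tested.

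Pdia5 was at 0.836, 1.97 and 2.19 FPKM in NEC and 4.32, 4.31 and 2.77 FPKM in control, with control 3 nearest to NEC as for Ern2. The log2 change was -0.87 (SE 0.25, limma adjusted p = 0.0349), and the call held in 7 of 15 alternatives. It was lost with TMM scaling (limma adjusted p = 0.0719), quantile normalization (0.0912), no filter (0.0647) and the replicate number as a block (0.0616). The call was also lost on leaving out NEC 2 (0.0594), control 1 (0.111), control 2 (0.113) or control 3 (0.0509), in a range of 0.0187 to 0.113. Pdia4, with an extra catalytic domain, was at 24.0, 36.4 and 46.2 FPKM in NEC and 49.6, 47.7 and 47.1 FPKM in control, and Pdia6 was at 14.7, 19.0 and 24.0 FPKM in NEC and 27.8, 27.1 and 26.9 FPKM in control. Both were below control in every NEC library, furthest in NEC 1, with log2 changes of -0.48 (SE 0.22, limma adjusted p = 0.127) and -0.51 (SE 0.17, limma adjusted p = 0.0525). Pdia3, the partner of the lectin chaperones, was at 54.5, 61.9 and 75.5 FPKM in NEC and 72.2, 79.9 and 80.2 FPKM in control. After TMM scaling the log2 changes of Pdia3, Pdia4 and Pdia6 were 0.06, -0.14 and -0.18.

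In ER-associated degradation, Edem2 rose, Sel1l fell, 7 genes did not pass, and Derl3 was below the filter. Edem2, which encodes a mannosidase-like protein that starts the trimming of sugars on misfolded proteins (mm10 chromosome 2, 155701677 to 155729475), was at 19.8, 19.3 and 19.3 FPKM in NEC and 12.8, 13.7 and 13.6 FPKM in control. The values were tight in both groups and did not overlap, with a ratio of 1.46 and a log2 change of 0.51 (SE 0.08, limma adjusted p = 0.0083). It was called in all 16 alternatives, with an adjusted p of 0.00182 to 0.0481. Its relatives Edem1 (14.4, 17.1 and 15.3 FPKM in NEC, 13.7, 13 and 13.8 FPKM in control) and Edem3 (11.4, 16 and 14.2 FPKM in NEC, 12.0, 12.6 and 10.5 FPKM in control) had log2 changes of 0.19 (SE 0.10) and 0.22 (SE 0.14) and did not pass, though both did after TMM scaling (0.52 and 0.54).

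Sel1l, the adaptor of the HRD1 ubiquitin ligase (mm10 chromosome 12, 91806043 to 91849157), was at 14.7, 14.3 and 12.3 FPKM in NEC and 19.8, 18.9 and 19.9 FPKM in control. Its groups did not overlap, and its log2 change was -0.48 (SE 0.10, limma adjusted p = 0.0144). After TMM scaling it was -0.16 with an adjusted p of 0.407, the highest of 16 alternatives, whose lowest was 0.00337. The call was also lost without control 1 (adjusted p = 0.0648), control 2 (0.0599) or control 3 (0.0545). Syvn1, which encodes the HRD1 ligase itself, was at 3.28, 3.29 and 3.51 FPKM in NEC and 3.38, 2.00 and 2.18 FPKM in control, so control 1 was within the NEC range and the other controls below it (log2 0.33, SE 0.16, limma adjusted p = 0.141). TMM scaling called Syvn1 higher, at 0.59. Herpud1, a membrane scaffold that recruits the ligase, was at 19.6, 27.8 and 16.5 FPKM in NEC and 21.6, 24.6 and 25.6 FPKM in control.

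The derlins form the channel through which misfolded proteins leave the ER. Derl1 was at 34.2, 36.6 and 28.9 FPKM in NEC and 29.4, 27.6 and 29.3 FPKM in control (log2 0.20), and Derl2 was at 4.18 to 4.59 FPKM in NEC and 4.74 to 5.15 FPKM in control (log2 -0.15). TMM scaling called Derl1 higher, at 0.53 (limma adjusted p = 0.0351). Derl3 was at 0.0384 to 0.0847 FPKM in NEC and 0.0627 to 0.183 FPKM in control, too low to test. Selenos, a selenoprotein of the same complex, was at 5.26 to 7.49 FPKM in NEC and 5.79 to 6.62 FPKM in control.

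**Figure D5:**
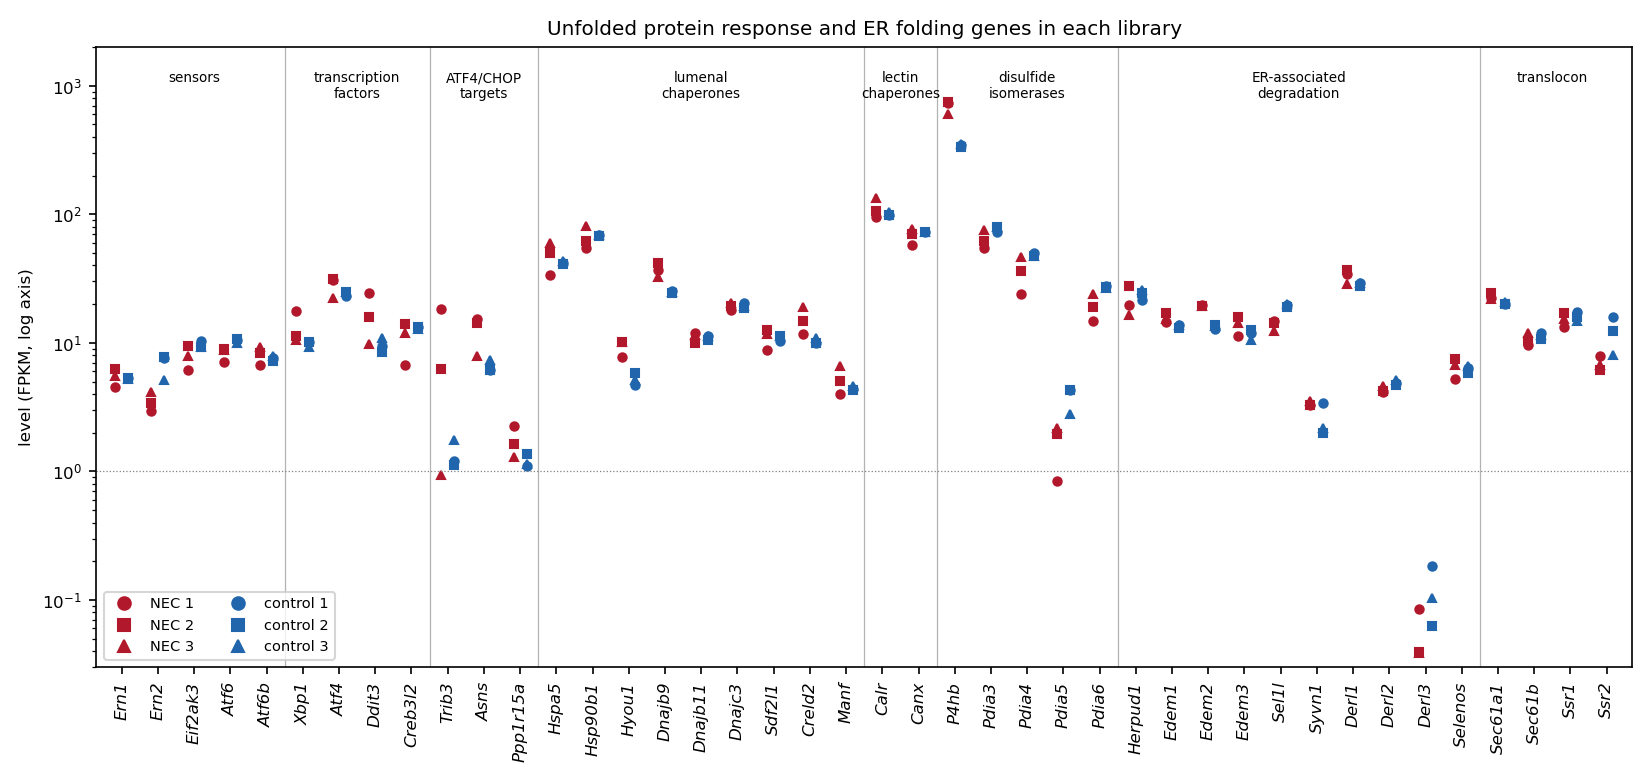
FPKM of all 42 genes in each library on a log axis, grouped by role, NEC in red left of control in blue; the dotted line marks 1 FPKM. P4hb lies above all other members at 607 to 743 FPKM in NEC and 332 to 354 FPKM in control, Derl3 lies at 0.0384 to 0.183 FPKM, and the NEC points of Trib3 span 0.930 to 18.2 FPKM.

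Of the 4 translocon genes 0 passed the limma test on the deposited scale, and 1, Ssr2, had an unadjusted p under 0.05. After TMM scaling 1, Sec61a1, was called higher (log2 0.51, limma adjusted p = 0.0144). At an unadjusted p under 0.05, for which no share of all tested genes is given, 3 were higher. Protein-coding scaling also called Sec61a1 higher (limma adjusted p = 0.0442). Sec61a1, the pore subunit, was at 22.4, 24.6 and 21.9 FPKM in NEC and 19.9, 19.9 and 20.6 FPKM in control, all above control by a small margin (log2 0.18, SE 0.09, limma adjusted p = 0.13). Sec61b, a small subunit of the pore, was at 9.61 to 11.9 FPKM in NEC and 10.8 to 12.0 FPKM in control, and Ssr1, of the translocon-associated protein complex, was at 13.2 to 17.0 FPKM in NEC and 14.9 to 17.5 FPKM in control. Ssr2, of the same complex, was at 7.91, 6.13 and 6.73 FPKM in NEC and 15.8, 12.3 and 8 FPKM in control, with control 3 just above NEC 1 (log2 -0.68, SE 0.23, limma adjusted p = 0.0559). Of its exon bases, 12.8% overlap Gm10704, a pseudogene on the other strand, and the strand setting of the counting was not given in the sources used here, so its value is uncertain.

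Beyond the 42 genes, 5 lists of related genes were read by counts. Beside these, 7.69% of all tested genes were higher and 30.6% lower, and 16.7% and 14.2% after TMM scaling. Of 24 other stress kinases, regulators and bZIP factors, 5 rose, 6 fell and 13 did not pass (8 higher and 2 lower after TMM scaling). Creb3l3, a membrane-bound factor of liver and intestine known for lipid genes, was at 301, 218 and 182 FPKM in NEC and 59.1, 58.7 and 54.6 FPKM in control, a log2 change of 1.97 (SE 0.18, limma adjusted p = 0.0023). Bak1, a pore former of cell death, rose by 0.84. Eif2ak4, the GCN2 kinase that senses uncharged tRNA, fell by 0.63, and Creb3l4, another membrane-bound factor, fell by 1.23. Creb3l4 was at 0.378, 0.813 and 1.21 FPKM in NEC and 3.50, 4.01 and 2.19 FPKM in control, with control 3 nearest to NEC.

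Among 38 other ER folding genes the test called 4 higher and 16 lower (7 higher and 9 lower after TMM scaling). Of all tested genes 7.69% were higher and 30.6% lower, and 16.7% and 14.2% with TMM. Ero1l, the oxidase that recharges protein disulfide isomerases, was at 41.7, 58.6 and 42.2 FPKM in NEC and 27.2, 24.8 and 25.2 FPKM in control (log2 0.84, SE 0.15, limma adjusted p = 0.0104), and its relative Ero1lb rose by 0.76. Fkbp9, a prolyl isomerase gene, fell by 1.47, at 5.10, 10.0 and 10.8 FPKM in NEC and 25.9, 25.2 and 23.1 FPKM in control, and the thioredoxin-like Tmx4 fell by 1.17. Fkbp9 was lowest in NEC 1, as were 34 of the 38 genes of this list (89.5%) and 64.1% of all tested genes.

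Among 39 other genes of ER-associated degradation the test called 4 higher and 3 lower, and 13 higher and 0 lower after TMM scaling. At an unadjusted p under 0.05, with no share of all tested genes given, TMM values had 18 higher and 2 lower. Nploc4, a cofactor of the p97 extractor, rose by 0.56 and Aup1 rose by 0.35, while the ligase Rnf103 fell by 0.50 and Jkamp fell by 0.55. Among 41 genes of translocation, signal peptide removal, glycosylation and exit from the ER it called 4 higher and 9 lower (9 higher and 3 lower after TMM scaling). Sec24d, a cargo subunit of the COPII coat, was at 27.8, 37.8 and 25.9 FPKM in NEC and 12.1, 12.0 and 12.6 FPKM in control (log2 1.23, SE 0.15, limma adjusted p = 0.00475). Sar1b, the COPII GTPase needed to export chylomicrons, was at 101, 117 and 85.5 FPKM in NEC and 49.8, 45.6 and 47.0 FPKM in control (log2 1.06, SE 0.13). Tusc3, of the oligosaccharyl transferase, fell by 0.62 and Srp19, of the signal recognition particle, fell by 0.55. Over all 5 lists, 18 of 175 tested genes were higher and 38 lower, with a median log2 change of -0.11, beside 7.69% higher and 30.6% lower of all tested genes. After TMM scaling the balance turned, with 46 higher and 16 lower and a median of 0.18, beside 16.7% higher and 14.2% lower of all tested genes.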

How the data were processed

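The deposited table held 1 value per gene for each of 3 NEC and 3 control libraries. Per the submitters' processing notes the authors used HISAT2, SAMtools 1.3.1 and Cuffdiff on mm10, and the deposited values were read as FPKM, since the table names no unit. The versions of the other tools, the gene models and the strand handling are not given in the sources used here. Of the steps of single-transcript genes, 99.0% to 99.2% per library were whole fragments within 0.01. The columns N_1 to N_3 were taken as NEC 1 to 3. Of 55487 identifiers, 55141 matched GENCODE release M21, which gave symbols and coordinates.

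log2(FPKM + 1) was computed from the deposited FPKM for 15806 genes, those averaging 1 FPKM or more. It was fitted with limma 3.58.1 in R 4.3.3 with a trend, group the only term, and p-values were Benjamini-Hochberg adjusted over all these genes. The scale understates changes of low genes. The members, lists and tests were chosen with earlier results of these data known. From each related list, up to 2 called genes per direction with the smallest p are named. Alternatives were other pseudocounts (0.1, 0.01), filters, scalings and fits, the replicate number as a block, and each library left out. TMM trimmed 30% of log ratios and 5% of levels at each end, and took an unweighted mean over the tested genes. Protein-coding scaling left out the 100 genes of highest mean. Same-numbered libraries showed no positive correlation of their deviations from the group means (-0.0743 to -0.00737), which cannot exclude a shared origin or batch. Fits were tested on simulated data. Of other marker lists, Paneth had 1 of 5 tested genes lower, enteroendocrine 2 of 8, plasma and B cell 1 of 4, macrophage 3 of 8, neutrophil 0 of 5, endothelial 2 of 6 and neuron and glia 4 of 4, with none higher on the deposited scale, where 30.6% of all tested genes were lower. After TMM scaling plasma and B cell markers had 1 higher and 1 lower, macrophage 2 higher and 1 lower and endothelial 2 higher and 1 lower. Figures used Python 3.11.15 and matplotlib 3.10.9.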

Additional observations from a re-analysis of the deposited data

How the results depend on the processing

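Against 5 higher and 3 lower genes among the 42, TMM scaling gave 16 higher and 1 lower, quantile normalization 9 and 2, protein-coding scaling 8 and 3, and sample weights 10 and 7. Leaving out single libraries gave 2 to 8 higher and 0 to 6 lower. Both pseudocounts, a minimum mean of 5 FPKM, no minimum and no trend gave 4 or 5 higher and 2 or 3 lower. The fit with a replicate block gave 4 higher and 3 lower, without Asns (limma adjusted p = 0.0633) and Pdia5 (0.0616) and with Ssr2 (0.0477). All 3 numbers correlated below 0 between groups, and 0 of 6 libraries correlated best with their own number. With 3 libraries per group, this check cannot decide whether same-numbered libraries shared an origin or a batch. Dnajc3 was at a log2 change of 0.32 with TMM scaling, against -0.01 on the deposited scale, and the cause was not tested. P4hb and Edem2 were called under all 16 alternatives. At an unadjusted p under 0.05 by limma, 6 genes lay above and 6 below control. TMM values had 28 above and 2 below, and quantile-normalized values 16 above and 6 below. No share of all tested genes is given at that threshold, here or above, so these counts cannot be set against all genes.

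Over all genes, 1215 higher and 4829 lower became 2638 and 2252 with TMM scaling, 2202 and 2387 with quantile normalization, 939 and 1746 with a minimum mean of 5 FPKM, and 471 to 1566 and 917 to 5378 with a library left out. Members with low values, such as Derl3, Ppp1r15a and Pdia5, rest on few fragments, and no counts were used.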

Other observations

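Genes of this paragraph were chosen after their values were seen. Eif2ak2, the PKR kinase gene that responds to double-stranded RNA and interferon and also phosphorylates eIF2alpha, was at 45 FPKM in NEC 1, 12.7 and 12.9 FPKM in NEC 2 and 3 and 15.1, 15.6 and 13.7 FPKM in control. Cebpb, a partner of ATF4 and CHOP, was at 21.4, 12.2 and 8.27 FPKM in NEC 1, 2 and 3 and 12.6, 11.2 and 11.1 FPKM in control. The groups of both genes overlapped and neither passed the test. Of 11 pancreatic acinar markers, Prss2, Pnlip, Ptf1a and Amy2a5 were listed at 0 in every library, while Ctrb1, a pancreatic protease gene, was at 10.8, 4.45 and 1.34 FPKM in NEC 1, 2 and 3 and 0.292, 0.15 and 0 FPKM in control (log2 2.22, SE 0.54, limma adjusted p = 0.022). Ctrb1, like Trib3, was highest in NEC 1 and lowest in NEC 3, and whether these values are related was not tested.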
